A study of Homo sapiens with 4 samples.

Results

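The 58 genes described here encode the machinery that licenses and fires replication origins, copies DNA, supplies nucleotides, drives cells from G1 into S phase and guards the replication fork through the ATR kinase. They were taken by symbol, in 8 roles, from the 60487 genes listed in each file, and all 58 were found, in 59 rows, since ATRIP has 2 identifiers at the same locus that were summed. The cells are HCC1937, a breast cancer line, long established from a human tumour, in which BRCA1 is mutated. The wtBRCA1 cells are HCC1937 cells with wild-type BRCA1 (genotype labelled wild type), and the vector cells are their counterpart with a vector (genotype labelled BRCA1 -/-). Each line received OTX-015, an inhibitor of the BET bromodomain proteins that read acetylated histones, or the solvent DMSO. The 4 groups are wtBRCA1 cells under OTX-015, wtBRCA1 cells under DMSO, vector cells under OTX-015 and vector cells under DMSO, with 1 library of poly(A) RNA each. The labels give no dose, duration or promoter of the BRCA1 construct, and do not say whether a line is a clone or a pool. With 1 library per group no difference between a pair of libraries has a replicate check, and the depth behind each FPKM value (fragments scaled to transcript length and to the number of fragments sequenced) is unknown.

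Replication begins when the origin recognition complex, CDC6 and CDT1 load the ring-shaped MCM2-7 helicase onto DNA in G1. In S phase the CDC7-DBF4 and cyclin E-CDK2 kinases turn the ring into an active helicase with CDC45 and GINS, and polymerases alpha, delta and epsilon copy the strands behind it. Most genes of this machinery are targets of the E2F transcription factors and are transcribed around the G1/S boundary, while ATR and CHEK1 slow origin firing and protect forks when DNA synthesis stalls. In RNA of a whole culture, fewer cells in S phase and less transcript per cell cannot be told apart.

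The promoters show what these genes share apart from their expression. RefSeq entries on GRCh38.p14 gave the 250 bases before the RefSeq start for 51 of the 58 genes. None was found for CCNE2, CDK2, GINS4, MCM4, MCM5, POLD3 and WEE1. The RefSeq start can lie inside the gene as annotated for the FPKM values. By that annotation CDT1 starts at 88803213 and GINS2, on the reverse strand, at 85690073, so their 250 bases lie within the gene. So do most of those of POLE2, which starts at 49688422 on the reverse strand. The E2F site was searched on both strands as TTTCCCGC, TTTCGCGC, TTTGCCGC or TTTGGCGC, and 16 of the 51 promoters held it (31.4%), against 2.79% of 27305 promoters in all and 4.36% of the 10084 promoters of genes kept for the tests. CCAAT was in 56.9% of the members' promoters, 33.0% of all promoters and 35.3% of those of genes kept. The GC box GGGCGG was in 74.5% of the members' promoters, 42.3% of all and 66.8% of those of genes kept. TTTGAA, the core of the cell cycle homology region of late cell cycle genes, was in 1 member promoter, that of RRM1, and in 13.6% of all and 8.38% of those of genes kept. CACGTG, the E-box of MYC and its relatives, was in 7.84% of the members' promoters, 6.49% of all and 8.99% of those of genes kept. A match is a description of the letters and no evidence of binding. The 7 promoters printed here are 5 with E2F matches from different roles, and those of POLE2 and RRM1, which changed in the tests described further on and hold no E2F match. CDT1, which is among the 5, changed in these tests as well. Capitals mark E2F and CCAAT matches on either strand, written 5′ to 3′ on the gene's strand. Their positions are chr20:33686386-33686635 for E2F1 (reverse strand), chr2:135876444-135876693 for MCM6 (reverse), chr20:5126623-5126872 for PCNA (reverse), chr16:88803539-88803788 for CDT1 (forward), chr16:85688955-85689204 for GINS2 (reverse), chr14:49688215-49688464 for POLE2 (reverse) and chr11:4094435-4094684 for RRM1 (forward).
E2F1: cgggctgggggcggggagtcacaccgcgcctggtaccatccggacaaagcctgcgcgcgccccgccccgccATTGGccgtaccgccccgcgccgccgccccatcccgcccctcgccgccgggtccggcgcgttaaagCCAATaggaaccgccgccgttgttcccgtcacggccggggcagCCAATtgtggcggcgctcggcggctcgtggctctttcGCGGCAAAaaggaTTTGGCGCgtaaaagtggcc
MCM6: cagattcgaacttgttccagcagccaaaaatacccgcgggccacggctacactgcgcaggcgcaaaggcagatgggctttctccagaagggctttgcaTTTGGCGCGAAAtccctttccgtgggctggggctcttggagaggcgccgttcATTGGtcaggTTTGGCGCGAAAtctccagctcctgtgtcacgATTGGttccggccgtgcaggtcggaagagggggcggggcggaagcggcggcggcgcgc
PCNA: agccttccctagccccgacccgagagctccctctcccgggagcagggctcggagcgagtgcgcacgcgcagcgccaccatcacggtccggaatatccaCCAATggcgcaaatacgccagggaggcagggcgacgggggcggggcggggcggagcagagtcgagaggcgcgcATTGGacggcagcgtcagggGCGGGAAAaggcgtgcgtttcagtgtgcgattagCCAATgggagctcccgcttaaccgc
CDT1: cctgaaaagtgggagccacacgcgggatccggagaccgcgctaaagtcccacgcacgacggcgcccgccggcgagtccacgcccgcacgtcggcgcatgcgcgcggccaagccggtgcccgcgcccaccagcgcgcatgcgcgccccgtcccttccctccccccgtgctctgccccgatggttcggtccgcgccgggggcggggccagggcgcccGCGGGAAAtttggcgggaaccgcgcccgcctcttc
GINS2: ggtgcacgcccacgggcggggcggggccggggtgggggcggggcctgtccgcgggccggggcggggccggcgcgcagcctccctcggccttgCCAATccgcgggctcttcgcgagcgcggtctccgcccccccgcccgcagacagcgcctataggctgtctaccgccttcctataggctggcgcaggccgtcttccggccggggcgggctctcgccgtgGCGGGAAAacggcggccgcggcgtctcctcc
POLE2: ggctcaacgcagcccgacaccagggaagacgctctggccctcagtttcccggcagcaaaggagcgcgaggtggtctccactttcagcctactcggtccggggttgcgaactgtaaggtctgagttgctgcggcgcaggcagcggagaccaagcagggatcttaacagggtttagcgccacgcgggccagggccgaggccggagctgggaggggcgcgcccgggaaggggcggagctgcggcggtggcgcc
RRM1: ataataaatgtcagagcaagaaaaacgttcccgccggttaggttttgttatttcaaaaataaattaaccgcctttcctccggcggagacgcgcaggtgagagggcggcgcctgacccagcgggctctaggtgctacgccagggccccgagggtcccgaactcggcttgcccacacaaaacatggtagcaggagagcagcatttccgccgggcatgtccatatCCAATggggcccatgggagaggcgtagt
MCM6 carries 4 E2F matches, which pair into 2 runs of overlapping sites on opposite strands. E2F1, the gene of the founding activator of this family, has 2 E2F matches next to its start and 3 CCAAT boxes.

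All 58 genes reached 1 FPKM in at least 1 library, so none was lost to the filter on low values. The summed FPKM of all genes was 1477103 in wtBRCA1 cells under OTX-015 and 962378 under DMSO, and 1496107 in vector cells under OTX-015 and 909314 under DMSO. The 10 highest genes held 33.8% and 39.2% of it in the OTX-015 libraries of wtBRCA1 and vector cells, against 15.3% and 17.4% under DMSO. Median-of-ratios rescaling, which rests on the middle of all genes, moved the response to OTX-015 by 0.05 log2 in wtBRCA1 cells and 0.09 log2 in vector cells. BRCA1 itself stood at 2712 FPKM in wtBRCA1 cells and 40.8 in vector cells under OTX-015, and at 171 FPKM and 37.2 FPKM under DMSO, in the direction of the line labels. Within wtBRCA1 cells BRCA1 RNA thus also differed by treatment, and its part in that line's responses was not tested. EPCAM, which marks epithelial cells, was at 377 to 443 FPKM. The sum of 8 epithelial markers was 7001 and 25773 FPKM in the OTX-015 libraries of wtBRCA1 and vector cells, against 5714 and 9343 FPKM under DMSO, and KRT8 made up most of it. Of the 8, KRT8 and CDH1 rose under OTX-015, by 1.003 and 1.31 log2 (limma adjusted p = 0.0223 and 0.0205). Between the lines the keratins KRT5 and KRT17 rose by 4.79 and 1.60 log2 (limma adjusted p = 3.8e-05 and 0.045), and KRT19, KRT18 and KRT8 fell by 5.63, 2.12 and 1.87 log2 (limma adjusted p = 0.000162, 0.00231 and 0.000853). The part of these lineage markers in the results was not tested. Of 5 fibroblast markers 3 were listed at 0 in all 4 libraries (sum 2.11 to 9.78 FPKM), as were the leukocyte gene CD3E and 1 of 3 endothelial markers, VWF (sum 0.67 to 7.03 FPKM). Among the other leukocyte genes PTPRC reached at most 0.225 FPKM and LYZ 0.438 FPKM, while CD68, a lysosomal protein of macrophages, was at 44.5 and 24.8 FPKM in the OTX-015 libraries of wtBRCA1 and vector cells, against 21.9 and 15.5 FPKM under DMSO.

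**Figure D1:**
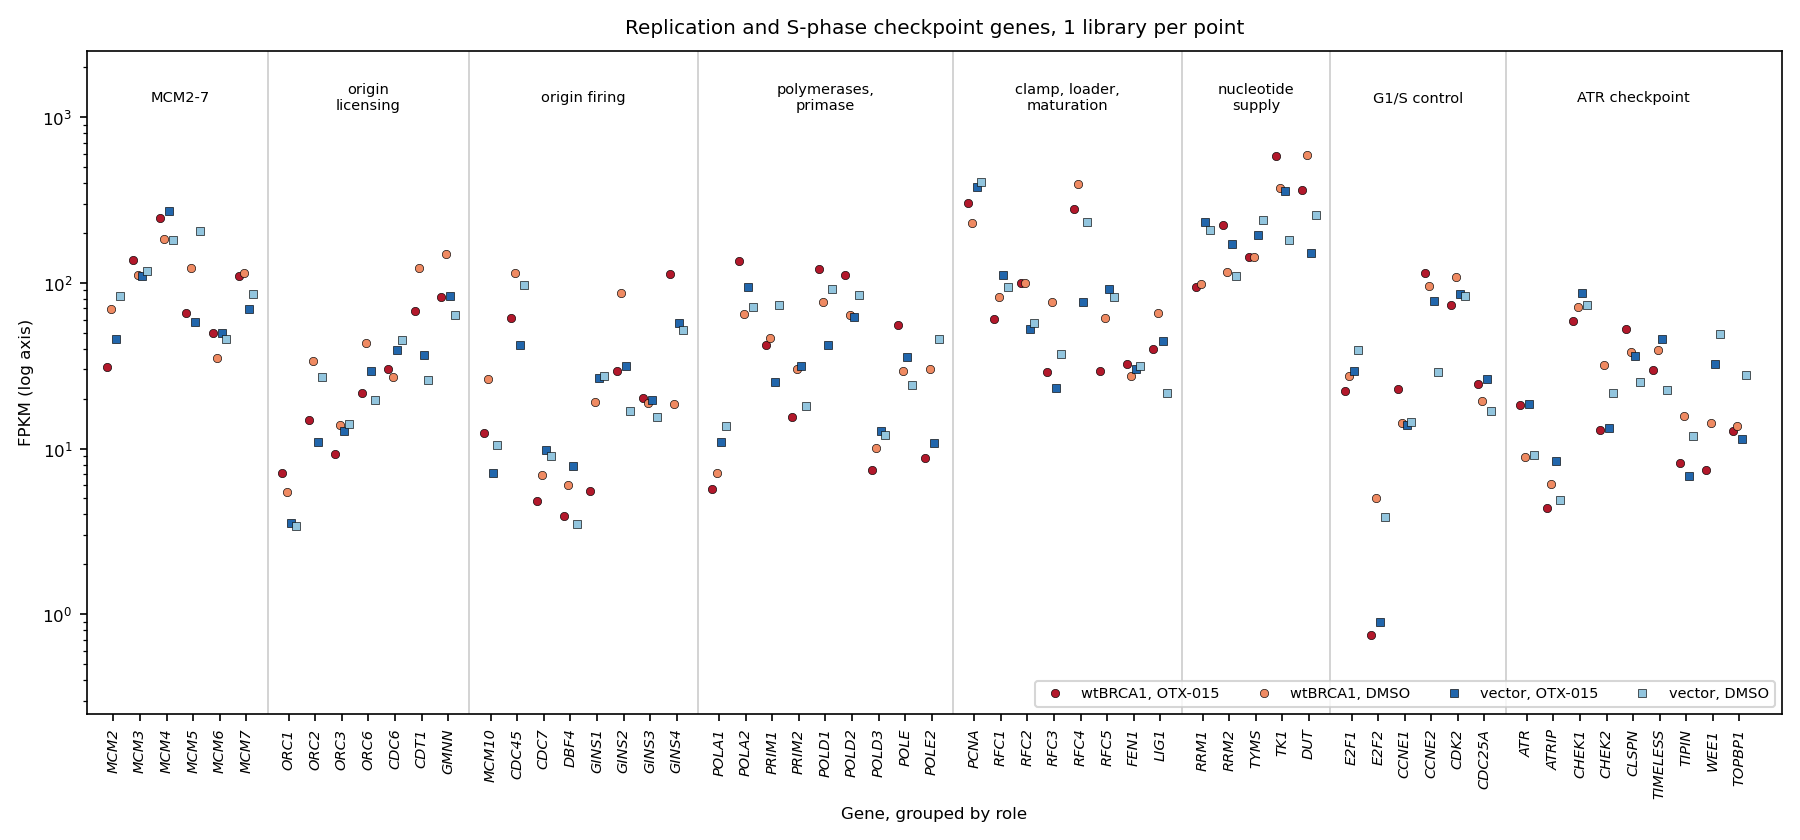
FPKM of the 58 genes on a log axis, grouped by role, with 1 point per library (red and orange circles for wtBRCA1 cells under OTX-015 and DMSO, dark and light blue squares for vector cells under OTX-015 and DMSO). Levels ran from 0.749 FPKM for E2F2 in wtBRCA1 cells under OTX-015 to 592 FPKM for DUT in wtBRCA1 cells under DMSO.

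The genes were expressed over a wide range. The median member stood at 31.7 FPKM in wtBRCA1 cells under OTX-015 and 41.2 under DMSO, and at 36.4 FPKM in vector cells under OTX-015 and 38.3 under DMSO. The nucleotide supply genes TK1, DUT, TYMS, RRM1 and RRM2, the sliding clamp PCNA, the clamp loader subunit RFC4 and the helicase subunit MCM4 were among the highest per length. E2F2, ORC1, DBF4 and ATRIP were among the lowest. FEN1, the nuclease that trims Okazaki fragments, varied least, with 32.3 and 27.6 FPKM in wtBRCA1 cells under OTX-015 and DMSO and 30.3 and 31.5 FPKM in vector cells under OTX-015 and DMSO, so that its highest library was 1.17 times its lowest. TMEM258 at the FEN1 locus was at 381 to 538 FPKM and FADS1 at up to 173 FPKM, so reads could have been divided there.

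The first comparison asked what OTX-015 did to these genes. The machinery did not move as a block: POLE2 and MCM5 fell in both lines, no gene rose, and the other 56 did not pass the test. Rose and fell refer here to limma fitted to log2(FPKM + 1) of all 18296 genes kept, with line and treatment as terms and a Benjamini-Hochberg adjusted p under 0.05. That fit has 1 residual degree of freedom per gene, which holds the difference between the lines' responses. Its variance is drawn mostly from other genes of similar level, with 8.64 prior degrees of freedom. The p therefore rests little on a gene's own consistency across the lines, and it does not measure the spread of repeated cultures. Of the members 2 fell, beside 2.67% of all genes, and 0 rose, beside 3.66%. At an unadjusted p under 0.05 the members numbered 10 lower (MCM2, MCM5, ORC2, CDC45, POLE2, RFC3, RFC4, DUT, E2F2 and CHEK2) and 7 higher (GINS4, POLA2, POLE, RRM2, TK1, CCNE2 and ATR). These are 17.2% and 12.1% of the members, beside 10.2% and 12.6% of all genes. MCM5 kept its call in 3 of 9 alternative settings and POLE2 in 7. For MCM5 the 3 were no filter, robust estimation and the highest row per symbol. The highest row leaves its values unchanged, and with no filter 54.1% of the genes fitted are at 0, so these add little. The 2 calls of MCM5 and POLE2 came to 0 without the mean-variance trend of the fit and to 0 after quantile normalization.

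POLE2, the second subunit of the leading-strand polymerase epsilon (ENSG00000100479, chromosome 14, 49643555 to 49688422 on hg38), was at 8.80 FPKM in wtBRCA1 cells under OTX-015 and 30.2 under DMSO, and at 10.9 FPKM in vector cells under OTX-015 and 45.6 under DMSO. Both OTX-015 libraries lay below both DMSO libraries. Here and below, such an order comes from the same 4 values as the test and adds no support to a call. Its share over all genes was not counted. The effect was -1.82 ± 0.34 log2 (SE, limma adjusted p = 0.0176). Its catalytic partner POLE had values in the other direction, with 55.5 FPKM in wtBRCA1 cells under OTX-015 and 29.2 under DMSO, and 35.5 FPKM in vector cells under OTX-015 and 24.1 under DMSO (0.72 ± 0.32 log2, limma adjusted p = 0.217). The POLE to POLE2 ratio was higher in the OTX-015 than in the DMSO library of each line, which was not tested. POLE was 6.3 and 3.27 times POLE2 in the OTX-015 libraries of wtBRCA1 and vector cells, whereas POLE2 was 1.04 and 1.89 times POLE in the DMSO libraries. The genes were thus nearly equal in wtBRCA1 cells under DMSO.

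MCM5, a subunit of the helicase ring (ENSG00000100297, chromosome 22, 35400063 to 35425430 on hg38), was at 65.9 FPKM in wtBRCA1 cells under OTX-015 and 122 under DMSO, and at 57.8 FPKM in vector cells under OTX-015 and 205 under DMSO. Both OTX-015 libraries again lay below both DMSO libraries. MCM5 fell by 1.35 log2 with an SE of 0.31 (limma adjusted p = 0.036). MCM2, at 31.2 FPKM in wtBRCA1 cells under OTX-015 and 69.4 under DMSO and at 45.6 FPKM in vector cells under OTX-015 and 83.8 under DMSO, had a value of -0.997 ± 0.30 log2 and did not pass (limma adjusted p = 0.083). The other ring subunits did not share these values. MCM4 was at 246 FPKM in wtBRCA1 cells under OTX-015 and 185 under DMSO, and at 273 FPKM in vector cells under OTX-015 and 181 under DMSO. MCM3 stayed between 110 and 138 FPKM, MCM6 between 35.0 and 49.7 FPKM and MCM7 between 69.5 and 114 FPKM over the 4 libraries. Although the ring holds 1 copy of each subunit, the highest subunit was 7.89 and 5.99 times the lowest in FPKM in the OTX-015 libraries of wtBRCA1 and vector cells, and 5.27 and 4.45 times in the DMSO libraries. TPRA1 shares the MCM2 locus at up to 91.2 FPKM.

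**Figure D2:**
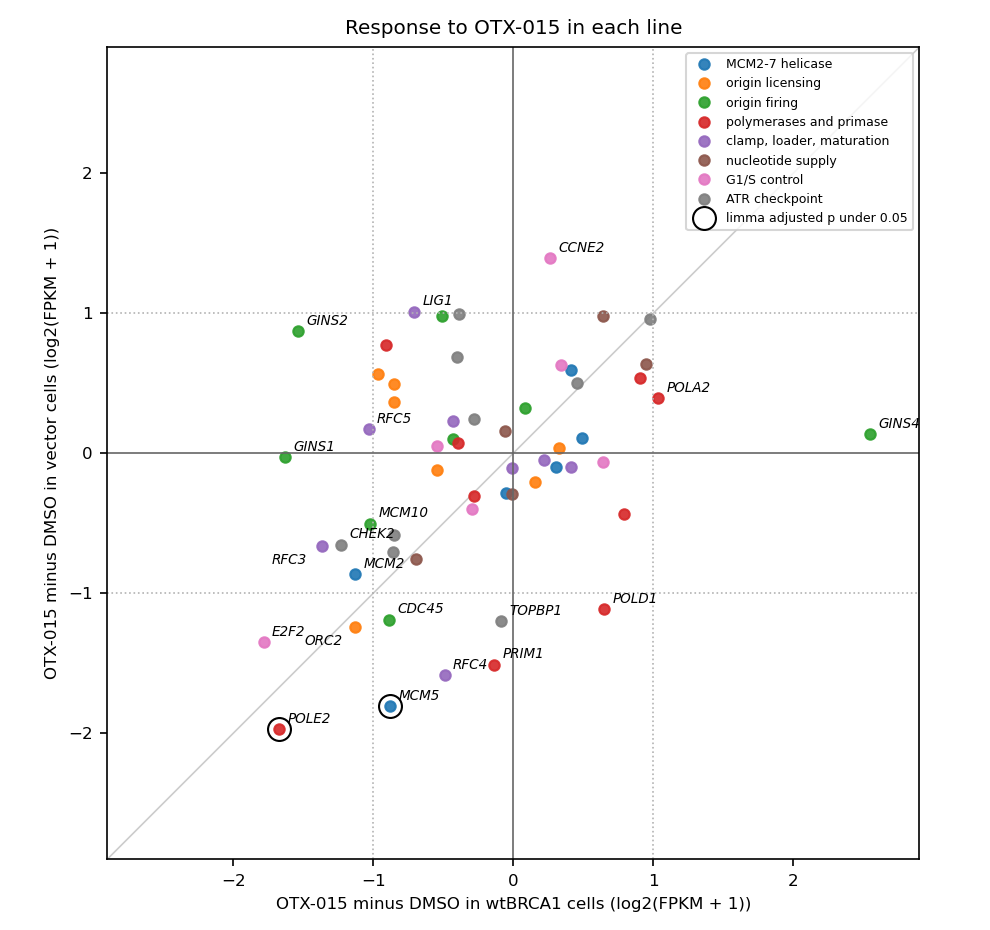
Log2 difference of OTX-015 minus DMSO in wtBRCA1 cells (x axis) and in vector cells (y axis) for the 58 genes, on the log2(FPKM + 1) scale, coloured by role. Dotted lines mark a difference of 1, rings mark POLE2 and MCM5, and names are given for genes past 1 on either axis. GINS4 lies far to the right at 2.55 and 0.14.

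Further values stood out in pairs of libraries without passing the test. ORC2, an origin recognition subunit, was at 14.9 FPKM in wtBRCA1 cells under OTX-015 and 33.9 under DMSO, and at 10.9 FPKM in vector cells under OTX-015 and 27.2 under DMSO. E2F2, an activator of S-phase genes, was at 0.749 FPKM in wtBRCA1 cells under OTX-015 and 5.03 under DMSO, and at 0.893 FPKM in vector cells under OTX-015 and 3.84 under DMSO. With POLE2 these were the 3 genes lower by at least 1 log2 in both lines, beside 4.43% of all genes, and 0 were higher by that much in both, beside 4.57%. CDC45, the helicase activator, was close to that size, at 61.3 FPKM in wtBRCA1 cells under OTX-015 and 115 under DMSO, and at 41.8 FPKM in vector cells under OTX-015 and 96.7 under DMSO. ORC2, E2F2 and CDC45 missed the test, with limma adjusted p of 0.0664, 0.0716 and 0.0654. NDUFB3 at the ORC2 locus was at 60.2 and 96.9 FPKM in wtBRCA1 cells under OTX-015 and DMSO. In vector cells it was at 79.7 and 114 FPKM under OTX-015 and DMSO, and reads could have been divided between NDUFB3 and ORC2.

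In wtBRCA1 cells 10 members were lower under OTX-015 by at least 1 log2, beside 13.4% of all genes, and 2 were higher, beside 12.95%. The lower ones were MCM2, ORC2, MCM10, GINS1, GINS2, POLE2, RFC3, RFC5, E2F2 and CHEK2, and the higher ones GINS4 and POLA2. In vector cells 9 members were lower, beside 12.7% of all genes, and 2 were higher, beside 12.98%. The lower ones there were MCM5, ORC2, CDC45, PRIM1, POLD1, POLE2, RFC4, E2F2 and TOPBP1, and the higher ones LIG1 and CCNE2. As shares of the 58 genes these came to 17.2% lower and 3.45% higher in wtBRCA1 cells, and 15.5% lower and 3.45% higher in vector cells. The lower shares were near those of all genes and the higher shares were below them. The higher shares rest on 2 genes per line and on the cutoff. In vector cells LIG1 stood at 1.01 log2, and TIMELESS, DBF4 and TK1, not counted, at 0.99, 0.98 and 0.98 log2. With a pseudocount of 0.1 the higher ones came to 5 in vector cells and to 3 in wtBRCA1 cells. The members' median response was -0.34 log2 in wtBRCA1 cells and 0.01 log2 in vector cells, where it was -0.07 after median-of-ratios rescaling and after quantile normalization, and the median of all genes was 0.0 in each line. Counted at any size, 22 members were lower in both lines (37.9%, beside 30.2% of all genes), 13 were higher in both (22.4%, beside 33.0%) and 23 had opposite signs (39.7%, beside 29.6%).

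**Figure D3:**
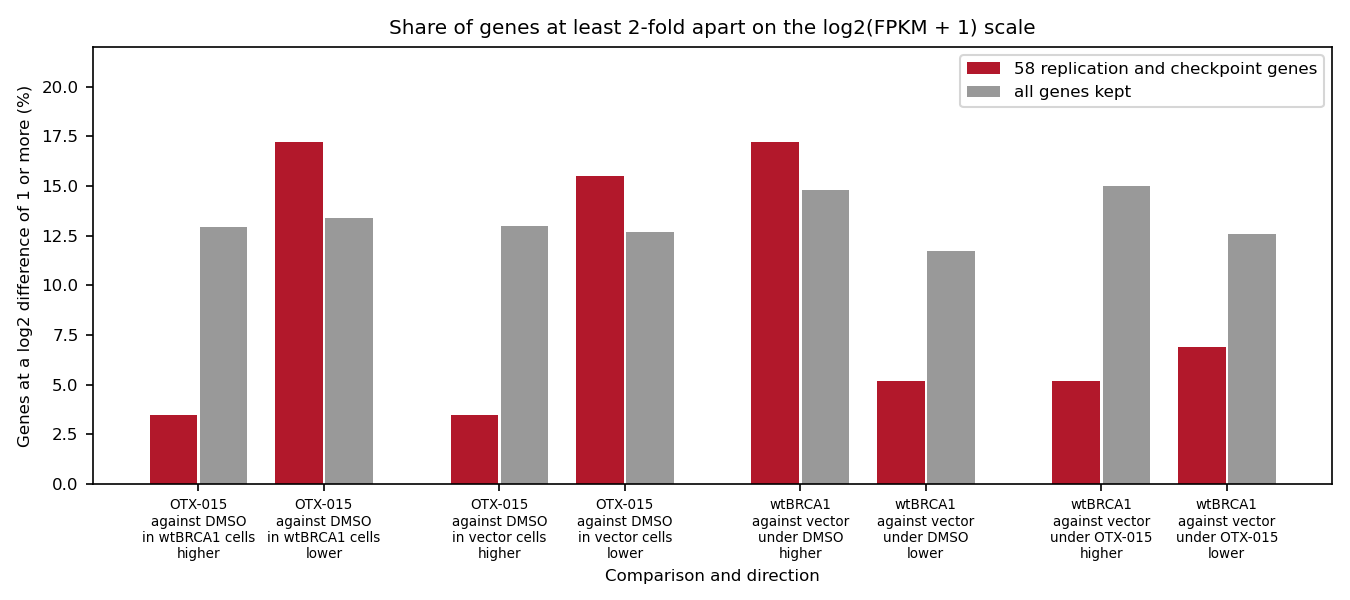
Percentage of the 58 genes (red) and of all 18296 genes kept (grey) at a log2 difference of 1 or more in each pair of libraries, by direction. The share of members higher under OTX-015 was 3.45% in each line, against 12.95% of all genes in wtBRCA1 cells and 12.98% in vector cells. Each of these member shares is 2 genes, and in vector cells the count came to 5 with a pseudocount of 0.1.

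Checkpoint genes of the ATR pathway had 9 members, of which 0 passed the test for OTX-015. ATR, the apical kinase, had nearly the same values in the 2 lines, 18.3 FPKM in wtBRCA1 cells under OTX-015 and 8.83 under DMSO, and 18.7 FPKM in vector cells under OTX-015 and 9.10 under DMSO. Its difference was 0.97 ± 0.34 log2 (SE, limma adjusted p = 0.13). CLSPN, the adaptor that lets ATR phosphorylate CHEK1, was at 52.9 FPKM in wtBRCA1 cells under OTX-015 and 38.3 under DMSO, and at 36.0 FPKM in vector cells under OTX-015 and 25.2 under DMSO. An antisense gene at the CLSPN locus, RP11-435D7.3, was at 206 and 172 FPKM in the OTX-015 libraries of wtBRCA1 and vector cells, against 108 and 59.8 FPKM under DMSO. Whether counting used the strand is not given, so reads of the 2 genes cannot be told apart. CHEK1, the effector kinase, stayed between 58.9 and 86.8 FPKM. CHEK2, the effector kinase of the ATM pathway, was at 12.9 FPKM in wtBRCA1 cells under OTX-015 and 31.7 under DMSO, and at 13.4 FPKM in vector cells under OTX-015 and 21.6 under DMSO. TIPIN, which with TIMELESS steadies the fork, was at 8.23 FPKM in wtBRCA1 cells under OTX-015 and 15.7 under DMSO, and at 6.85 FPKM in vector cells under OTX-015 and 11.8 under DMSO.

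Among the G1/S regulators 0 of 6 passed for OTX-015. E2F1 was at 22.2 FPKM in wtBRCA1 cells under OTX-015 and 27.4 under DMSO, and at 29.5 FPKM in vector cells under OTX-015 and 39.4 under DMSO. CCNE1, a cyclin E gene, spanned 13.8 to 22.9 FPKM, its partner kinase CDK2 73.6 to 108 FPKM and the CDK phosphatase CDC25A 16.7 to 26.4 FPKM. CCNE2, the other cyclin E gene, was at 114 FPKM in wtBRCA1 cells under OTX-015 and 95.0 under DMSO, and at 77.7 FPKM in vector cells under OTX-015 and 28.9 under DMSO, so the vector library under DMSO stood below the other 3. INTS8, at the CCNE2 locus, was at 261 and 146 FPKM in wtBRCA1 cells under OTX-015 and DMSO and at 120 and 89.8 FPKM in vector cells under OTX-015 and DMSO. Beside these, CDKN1A, the inhibitor of cyclin E-CDK2, rose by 3.29 log2 (limma adjusted p = 0.00185), from a list of 7 CDK inhibitors of which 1 rose and 0 fell. It stood at 133 FPKM in wtBRCA1 cells under OTX-015 and 18.1 under DMSO, and at 107 FPKM in vector cells under OTX-015 and 6.93 under DMSO. Its part in these results was not tested.

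The second comparison asked how the wtBRCA1 line differed from the vector line. CDT1, DUT, RFC4 and TK1 were higher in wtBRCA1 cells under both treatments and passed the test, and WEE1 and RRM1 were lower and passed. That is 4 of 58 that rose, beside 4.88% of all genes, and 2 that fell, beside 3.41%. With 1 line of each genotype, BRCA1 cannot be told apart from other differences between the lines. BRCA1 RNA in the wtBRCA1 line also differed by treatment, as given above. After median-of-ratios rescaling, and likewise after quantile normalization, 1 rose and 2 fell, and without the trend 0 did either. Of 9 alternative settings, CDT1 and TK1 each kept their call in 3 and RFC4 in 4, with adjusted p of limma up to 0.163, 0.259 and 0.188. For CDT1 and TK1 the 3 were again no filter, robust estimation and the highest row per symbol, which add little.

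DUT, which clears dUTP so that uracil is not built into DNA (ENSG00000128951, on chromosome 15), was at 365 FPKM in wtBRCA1 cells and 151 in vector cells under OTX-015, and at 592 FPKM in wtBRCA1 cells and 255 in vector cells under DMSO. The effect was 1.24 ± 0.23 log2 (SE, limma adjusted p = 0.0109), with nearly the same size under each treatment (1.27 and 1.21 log2 under OTX-015 and DMSO). An antisense gene at this locus, RP11-154J22.1, stood at up to 28.6 FPKM. TK1, the salvage kinase for thymidine (ENSG00000167900, chromosome 17), was at 582 FPKM in wtBRCA1 cells and 359 in vector cells under OTX-015, and at 374 FPKM in wtBRCA1 cells and 182 in vector cells under DMSO (0.87 ± 0.23 log2, SE, limma adjusted p = 0.0479). RRM1, the large subunit of ribonucleotide reductase (ENSG00000167325, chromosome 11), was at 94.4 FPKM in wtBRCA1 cells and 231 in vector cells under OTX-015, and at 98.3 FPKM in wtBRCA1 cells and 208 in vector cells under DMSO (-1.18 ± 0.26 log2, SE, limma adjusted p = 0.0239). The libraries of the lines did not overlap for DUT, TK1 or RRM1, though for TK1 the wtBRCA1 library under DMSO and the vector library under OTX-015 lay close. This order rests on the values that the test used and adds no support to the calls. RRM2, the small subunit of the same enzyme, was at 225 FPKM in wtBRCA1 cells and 171 in vector cells under OTX-015, and at 116 FPKM in wtBRCA1 cells and 110 in vector cells under DMSO. TYMS, which makes thymidylate, was at 143 FPKM in wtBRCA1 cells and 195 in vector cells under OTX-015, and at 144 FPKM in wtBRCA1 cells and 239 in vector cells under DMSO, and did not pass (limma adjusted p = 0.199).

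CDT1, the loader of the MCM ring (ENSG00000167513, chromosome 16, 88803213 to 88809258 on hg38), was at 67.9 FPKM in wtBRCA1 cells and 36.8 in vector cells under OTX-015, and at 123 FPKM in wtBRCA1 cells and 25.8 in vector cells under DMSO. Both wtBRCA1 libraries lay above both vector libraries. The line effect was 1.54 ± 0.37 log2 (SE, limma adjusted p = 0.0331). GMNN, the inhibitor that binds CDT1, was at 81.7 FPKM in wtBRCA1 cells and 83.1 in vector cells under OTX-015, and at 148 FPKM in wtBRCA1 cells and 64.2 in vector cells under DMSO. CDT1 and GMNN thus shared a high value in the wtBRCA1 library under DMSO. ORC6, an origin recognition subunit, was also highest there, at 43.1 FPKM against 19.5 in vector cells under DMSO, and at 21.6 FPKM in wtBRCA1 cells and 29.3 in vector cells under OTX-015. CDC6, the loading ATPase that works with CDT1, had 30.2 FPKM in wtBRCA1 cells and 39.0 in vector cells under OTX-015, and 27.0 FPKM in wtBRCA1 cells and 45.2 in vector cells under DMSO. ORC1 spanned 3.42 to 7.08 FPKM and ORC3 9.24 to 14.0 FPKM.

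WEE1, the kinase that restrains CDK1 and CDK2 in S phase (ENSG00000166483, chromosome 11, 9573681 to 9593457 on hg38), was at 7.43 FPKM in wtBRCA1 cells and 32.5 in vector cells under OTX-015, and at 14.2 FPKM in wtBRCA1 cells and 49.1 in vector cells under DMSO. It fell by 1.85 log2 with an SE of 0.33 (limma adjusted p = 0.0101), and both wtBRCA1 libraries lay below both vector libraries. RFC4, a clamp loader subunit (ENSG00000163918, chromosome 3), was at 280 FPKM in wtBRCA1 cells and 77.1 in vector cells under OTX-015, and at 394 FPKM in wtBRCA1 cells and 233 in vector cells under DMSO (1.30 ± 0.30 log2, SE, limma adjusted p = 0.0285). The translation factor gene EIF4A2 at the same locus was at 311 FPKM in wtBRCA1 cells and 276 in vector cells under OTX-015, and at 293 FPKM in wtBRCA1 cells and 194 in vector cells under DMSO, and reads could have been divided between the 2 genes.

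**Figure D4:**
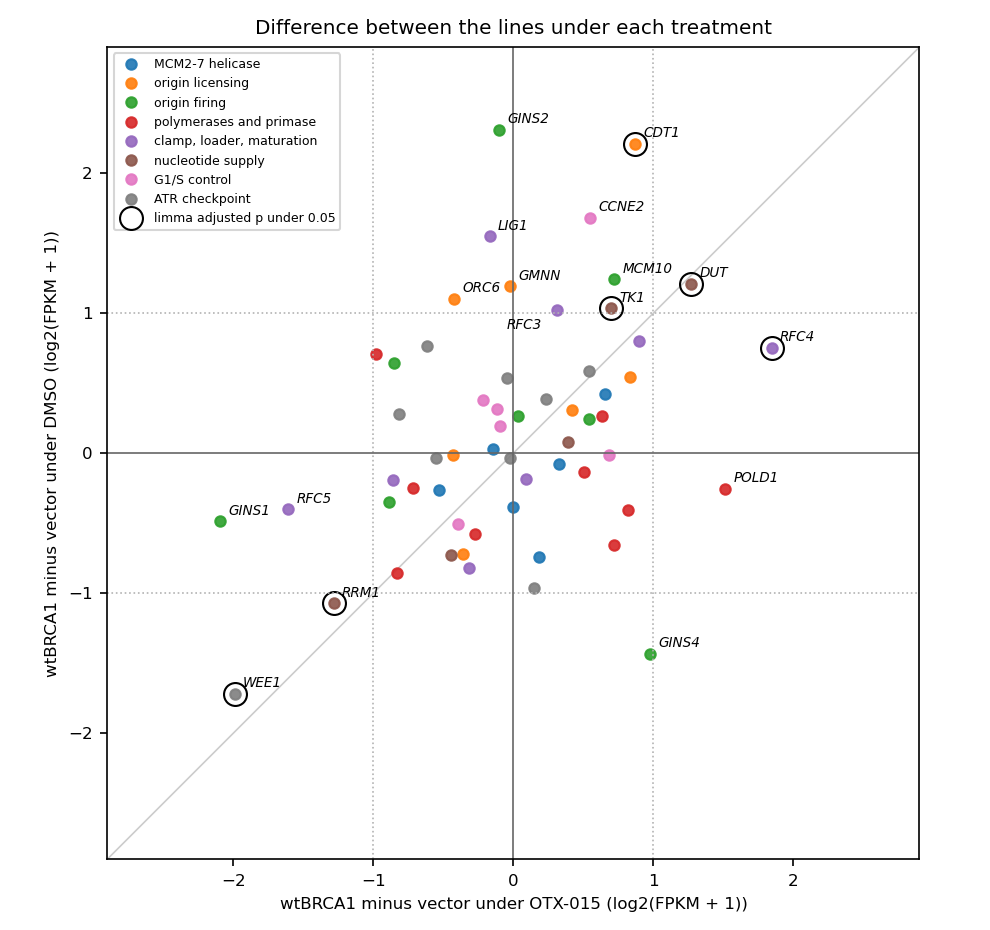
Log2 difference of wtBRCA1 minus vector cells under OTX-015 (x axis) and under DMSO (y axis) for the 58 genes, on the log2(FPKM + 1) scale, coloured by role. Rings mark the 6 genes past a limma adjusted p of 0.05, of which DUT, RRM1 and WEE1 lie near the diagonal. GINS2 and GINS4, which have no ring, lie far from it.

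Under DMSO 10 members were higher in wtBRCA1 than in vector cells by at least 1 log2, beside 14.8% of all genes, and 3 were lower, beside 11.7%. The higher ones were ORC6, CDT1, GMNN, MCM10, GINS2, RFC3, LIG1, TK1, DUT and CCNE2, and the lower ones GINS4, RRM1 and WEE1. Under OTX-015 the higher ones numbered 3, beside 15.02% of all genes, namely POLD1, RFC4 and DUT, and the lower ones 4, beside 12.6%, namely GINS1, RFC5, RRM1 and WEE1. DUT was the 1 gene higher by that much under both treatments, beside 6.11% of all genes, and RRM1 and WEE1 were the 2 lower under both, beside 4.43%. At any size 17 members were higher in wtBRCA1 cells under both treatments (beside 34.5% of all genes), 18 were lower (beside 29.7%) and 23 had opposite signs (beside 29.7%).

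The third comparison set the response to OTX-015 in wtBRCA1 cells against that in vector cells. In wtBRCA1 cells BRCA1 RNA was at 2712 FPKM under OTX-015 and 171 under DMSO, against 40.8 and 37.2 FPKM in vector cells. The drug and this change in BRCA1 RNA cannot be told apart in that line. The difference of responses is what the fit used as its residual, so it has no test. It was 1 log2 or more in size for 18 of the 58 genes, 31.0% beside 27.2% of all genes. The response in wtBRCA1 cells was the lower one for 12, beside 14.04% of all genes, and the higher one for 6, beside 13.2%. Of the 7 licensing genes 3 were among the 12, ORC6, CDT1 and GMNN, and of the 8 firing genes 3 were, DBF4, GINS1 and GINS2. Their differences ran from -2.41 to -1.22 log2. Among the firing genes 1, GINS4, went the other way, by 2.41 log2. The rest of the 12 lay in other roles.

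GINS, the 4-subunit ring that joins CDC45 to the helicase, held GINS4 and GINS2, with differences of 2.41 and -2.41 log2. GINS4 was at 113 FPKM in wtBRCA1 cells under OTX-015 and 18.5 under DMSO, and at 57.0 FPKM in vector cells under OTX-015 and 51.7 under DMSO. GINS2 (ENSG00000131153, chromosome 16) was at 29.4 FPKM in wtBRCA1 cells under OTX-015 and 87.2 under DMSO, and at 31.6 FPKM in vector cells under OTX-015 and 16.8 under DMSO. GINS1 was at 5.51 FPKM in wtBRCA1 cells under OTX-015 and 19.2 under DMSO, and at 26.8 FPKM in vector cells under OTX-015 and 27.3 under DMSO. GINS3 stayed between 15.6 and 20.2 FPKM. The highest GINS subunit was 20.5 and 4.70 times the lowest in wtBRCA1 cells under OTX-015 and DMSO, and 2.89 and 3.32 times in vector cells under OTX-015 and DMSO. Antisense genes at the GINS4 locus held up to 501 FPKM, above GINS4 itself, and GSE1 at the GINS2 locus up to 35.6 FPKM, so these values carry the uncertainty of shared loci.

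**Figure D5:**
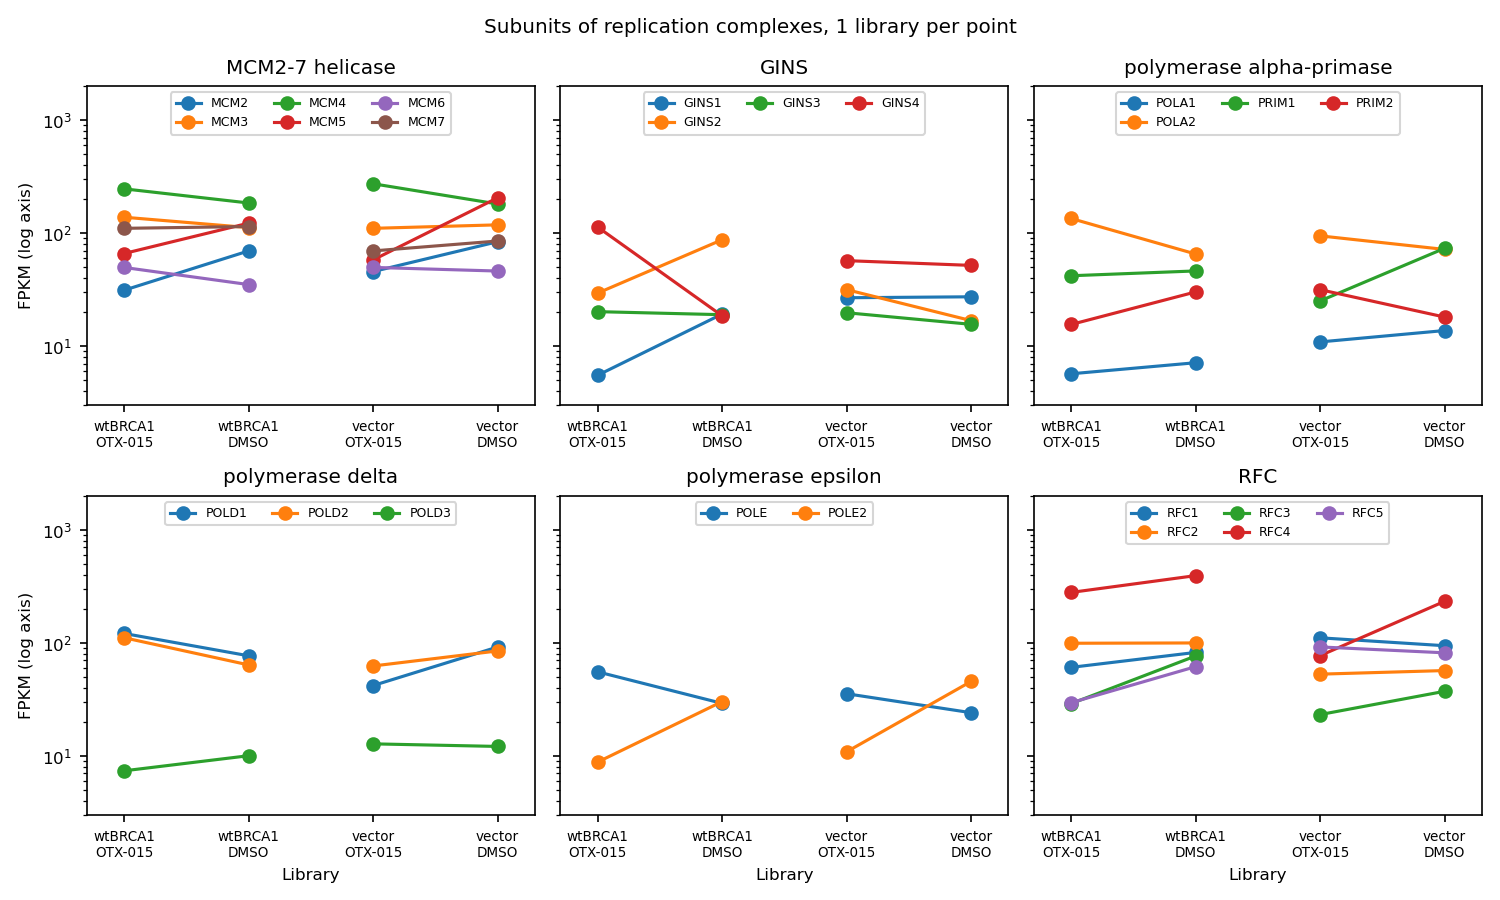
FPKM on a log axis of the subunits of 6 replication complexes in the 4 libraries, with lines joining the OTX-015 and DMSO libraries of a line. Only subunits among the 58 genes are shown, so POLD4, POLE3 and POLE4 are absent. GINS4 and GINS2 cross in wtBRCA1 cells, and POLE and POLE2 part under OTX-015 in both lines.

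The polymerases showed the same unevenness between subunits. POLD1, the catalytic subunit of the lagging-strand polymerase delta, was at 121 FPKM in wtBRCA1 cells under OTX-015 and 76.9 under DMSO, and at 41.9 FPKM in vector cells under OTX-015 and 91.9 under DMSO. POLD2 had 111 FPKM in wtBRCA1 cells under OTX-015 and 63.8 under DMSO, and 62.4 FPKM in vector cells under OTX-015 and 84.8 under DMSO. POLD1 and POLD2 were thus higher under OTX-015 in wtBRCA1 cells and lower in vector cells, while POLD3 stayed between 7.38 and 12.8 FPKM. The small subunits POLD4, POLE3 and POLE4 are not among the members. POLD4 ran opposite to POLD1 and POLD2, at 18.3 FPKM in wtBRCA1 cells under OTX-015 and 23.7 under DMSO. In vector cells it was at 35.3 FPKM under OTX-015 and 4.37 under DMSO. PRIM1, the catalytic primase subunit, was at 41.9 FPKM in wtBRCA1 cells under OTX-015 and 46.2 under DMSO, and at 25.1 FPKM in vector cells under OTX-015 and 73.3 under DMSO. PRIM2, the large primase subunit, had the opposite direction in vector cells but not in wtBRCA1 cells, at 15.5 FPKM in wtBRCA1 cells under OTX-015 and 30.1 under DMSO, and 31.6 FPKM in vector cells under OTX-015 and 18.1 under DMSO. POLA2, which accompanies the primase in polymerase alpha, was at 135 FPKM in wtBRCA1 cells under OTX-015 and 65.2 under DMSO, and at 94.4 FPKM in vector cells under OTX-015 and 71.6 under DMSO. The catalytic POLA1 stood at 5.68 to 13.7 FPKM. NACA shares the PRIM1 locus at up to 522 FPKM.

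At the clamp and its loader, PCNA stood at 304 FPKM in wtBRCA1 cells under OTX-015 and 229 under DMSO, and at 379 FPKM in vector cells under OTX-015 and 405 under DMSO. RFC3 was at 29.0 FPKM in wtBRCA1 cells under OTX-015 and 76.5 under DMSO, and at 23.2 FPKM in vector cells under OTX-015 and 37.3 under DMSO. RFC5 differed in value between the lines, at 29.6 FPKM in wtBRCA1 cells under OTX-015 and 61.6 under DMSO, and at 92.1 FPKM in vector cells under OTX-015 and 81.7 under DMSO. WSB2 shares the RFC5 locus at up to 88.6 FPKM. RFC2 stayed close within a line, at 99.2 and 99.8 FPKM in wtBRCA1 cells under OTX-015 and DMSO and at 52.9 and 56.9 FPKM in vector cells under OTX-015 and DMSO, and RFC1, the largest subunit, stood at 60.7 to 111 FPKM. LIG1, the ligase that seals Okazaki fragments, was at 39.7 FPKM in wtBRCA1 cells under OTX-015 and 65.6 under DMSO, and at 44.8 FPKM in vector cells under OTX-015 and 21.7 under DMSO.

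The remaining firing and fork genes complete the picture. MCM10, which helps to start unwinding, was at 12.3 FPKM in wtBRCA1 cells under OTX-015 and 26.2 under DMSO, and at 7.11 FPKM in vector cells under OTX-015 and 10.5 under DMSO. The firing kinase CDC7 was at 4.84 to 9.80 FPKM, and its activator DBF4 at 3.92 FPKM in wtBRCA1 cells under OTX-015 and 6.03 under DMSO and at 7.88 FPKM in vector cells under OTX-015 and 3.50 under DMSO. TIMELESS was at 29.7 FPKM in wtBRCA1 cells under OTX-015 and 39.2 under DMSO, and at 46.1 FPKM in vector cells under OTX-015 and 22.7 under DMSO. ATRIP, the partner of ATR, was at 4.37 FPKM in wtBRCA1 cells under OTX-015 and 6.10 under DMSO, and at 8.45 FPKM in vector cells under OTX-015 and 4.86 under DMSO. TOPBP1, which activates ATR, was at 12.8 FPKM in wtBRCA1 cells under OTX-015 and 13.6 under DMSO, and at 11.4 FPKM in vector cells under OTX-015 and 27.6 under DMSO.

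The E2F letters in the promoters divided these values as follows. Of the 16 genes with an E2F match 3 were lower under OTX-015 by at least 1 log2 in wtBRCA1 cells and 1 in vector cells. In each line 1 was higher, and the medians were -0.17 log2 in wtBRCA1 cells and -0.10 log2 in vector cells. Of the 35 without a match 7 were lower and 0 higher in each line, with medians of -0.40 and -0.03 log2. Over all genes 13.4% were lower and 12.95% higher in wtBRCA1 cells, and 12.7% and 12.98% in vector cells. In wtBRCA1 against vector cells under DMSO 4 with a match were higher and 0 lower, and 5 and 1 without a match. These stand beside 14.8% and 11.7% of all genes. Under OTX-015 the counts were 0 and 0 with a match and 3 and 3 without, beside 15.02% and 12.6%. No test was made of this split. MCM5 and WEE1, which passed a test, have no promoter entry and stand on neither side of it, as do GINS4 and CCNE2.

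Other genes of the pathway were read from lists that hold none of the 58. Of 27 further replisome and licensing genes 1 rose and 1 fell under OTX-015, both subunits of RNase H2, which removes ribonucleotides from DNA. RNASEH2C rose by 1.13 log2 (limma adjusted p = 0.0311) and RNASEH2B fell by 1.59 log2 (limma adjusted p = 0.0309). Of 12 further nucleotide supply genes 2 rose and 3 fell. RRM2B, the p53-controlled reductase subunit, rose by 2.35 log2 and IMPDH2, which makes guanine nucleotides, by 1.65 log2 (limma adjusted p = 0.00692 and 0.00753). DTYMK, DCK and NME1, kinases that build nucleotides, fell by 1.72, 1.67 and 1.09 log2 (limma adjusted p = 0.0232, 0.0264 and 0.0249). None of 21 measured further G1/S regulators and none of 13 further checkpoint genes passed for OTX-015. Of 12 chromatin genes coupled to replication 0 passed for OTX-015, and between the lines NASP, a histone chaperone, rose by 1.19 log2 while SLBP, which binds histone mRNA, and HELLS, a remodeller, fell by 1.18 and 1.69 log2 (limma adjusted p = 0.0213, 0.0365 and 0.0292). CDC25B, a CDK phosphatase, fell by 1.42 log2 between the lines (limma adjusted p = 0.0342). DTYMK, SAMHD1, FOXM1, NUSAP1 and the CDK4 inhibitor CDKN2C rose between the lines by 1.46, 2.43, 1.67, 1.504 and 2.84 log2 (limma adjusted p = 0.0319, 0.0201, 0.00904, 0.0189 and 0.00177). Of 20 mitosis genes 3 fell and 0 rose under OTX-015. They were FOXM1, a transcription factor of late cell cycle genes, UBE2C, which marks mitotic proteins for decay, and TOP2A, which untangles DNA, and they fell by 1.42, 1.13 and 1.10 log2 (limma adjusted p = 0.0246, 0.0383 and 0.0439). The list had medians of -0.43 log2 in wtBRCA1 cells and -0.34 log2 in vector cells, and MKI67, a marker of cycling cells, stood at 18.2 FPKM in wtBRCA1 cells under OTX-015 and 21.8 under DMSO, and at 22.2 FPKM in vector cells under OTX-015 and 24.6 under DMSO.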

How the data were processed

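The authors deposited FPKM per gene, and the submitters' processing notes name TopHat2, Cufflinks and the build hg38; versions, annotation release and scaling between libraries are not given in the sources used here. The libraries were made with a directional poly(A) kit, per the labels' protocols, and use of strand in counting is not given. No common step was found among low values (at most 4 of 588 genes below 0.3 FPKM shared a ratio), so depth is unknown.

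Here the 7506 short structural RNA genes (GENCODE 29 types) were left out, rows sharing a symbol were summed (68 symbols) and genes at 1 FPKM or more in at least 1 library were kept. Values were analysed as log2(FPKM + 1), on which differences of low genes are understated. limma 3.58.1 (R 4.3.3) was fitted to all genes kept on line plus treatment, using a mean-variance trend, with Benjamini-Hochberg adjustment and a threshold of 0.05; the procedure was tested on simulated data. Pairs of libraries have no test. Loci, written 1-based, are those of the files and can span several genes: 20 of the 58 genes share a locus with another gene above 10 FPKM. They are ATRIP, CCNE2, CDK2, CHEK1, CLSPN, DBF4, DUT, FEN1, GINS2, GINS3, GINS4, LIG1, MCM2, MCM7, ORC2, POLA1, PRIM1, RFC4, RFC5 and TYMS. Pseudogenes named after a member reached at most 4.08 FPKM. Alternatives were pseudocounts of 0.1 and 5, no filter or one at 5 FPKM, rescaling by median of ratios or by quantiles, no trend, robust estimation and the highest row per symbol, and, added after seeing the data, members free of such shared loci. All members are named; values are given in full for those past the threshold, past 1 log2 in both lines or treatments, or with responses 1 log2 apart. From other lists genes past the threshold came first. The members and lists were chosen with earlier results of these data known. Python 3.11.15, pandas 2.3.3, numpy 2.4.6 and matplotlib 3.10.9 were used.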

Additional observations from a re-analysis of the deposited data

Results flagged for a closer look

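Results were picked out here where a difference had opposite signs in the 2 lines, or under the 2 treatments, with at least 0.5 log2 each way. The difference of differences was not tested for any of them, since each group has 1 library. For the response to OTX-015, 6 of the 58 genes (10.3%) met this, beside 5.68% of all genes. GINS2 had -1.54 log2 in wtBRCA1 cells and 0.87 in vector cells, a difference of -2.41. LIG1 had -0.71 and 1.01 log2 in wtBRCA1 and vector cells (difference -1.72), PRIM2 -0.91 and 0.77 (-1.69), ORC6 -0.97 and 0.56 (-1.53) and DBF4 -0.51 and 0.98 (-1.49). POLD1 ran the other way, with 0.65 log2 in wtBRCA1 cells and -1.12 in vector cells (difference 1.77, or 1.765 before rounding).

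For wtBRCA1 minus vector cells the share of all genes that met the rule was not counted, so the genes named here cannot be set against it. At any size 39.7% of the members had opposite signs, beside 29.7% of all genes. GINS4 had 0.98 log2 under OTX-015 and -1.43 under DMSO, a difference of 2.41. PRIM1 had 0.72 and -0.66 log2 under OTX-015 and DMSO (difference 1.37), TIMELESS -0.62 and 0.76 (-1.38), PRIM2 -0.98 and 0.71 (-1.69) and DBF4 -0.85 and 0.64 (-1.49).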

How the results depend on the processing

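Of 110 counts of members under an alternative setting, 78 were within 1.5 times the reported count and 32 were not. This tally is no measure of stability. All members passed either filter, so counts in pairs of libraries and of differences of responses could not change with it. The counts among the 38 members free of shared loci come from fewer genes and are lower for that reason alone. For OTX-015 in both lines, the 2 members that fell came to 1 with a pseudocount of 0.1 or of 5, at an FPKM filter of 5 and after median-of-ratios rescaling, to 0 after quantile normalization and without the trend, and to 7 with no filter, where 1 member also rose. With no filter 54.1% of genes were at 0 in all libraries. Between the lines, the 4 members that rose came to 2 with a pseudocount of 0.1, to 1 with a pseudocount of 5, at a filter of 5, after median-of-ratios rescaling and after quantile normalization, and to 0 without the trend, and the 2 that fell came to 4 with no filter and 0 without the trend. Of the 8 calls, 0 were kept without the trend, 3 after quantile normalization, 4 with a pseudocount of 5, at a filter of 5 or after median-of-ratios rescaling, and 5 with a pseudocount of 0.1. All 8 were kept with no filter, with robust estimation and with the highest row per symbol. The highest row leaves their values unchanged, and with no filter the genes at 0 enter the fit. The adjusted p ranged over the settings from 1.84e-05 to 0.161 for POLE2, from 0.000264 to 0.198 for MCM5, and from 5.92e-06 to 0.0878 for WEE1. It ranged from 2.92e-05 to 0.163 for CDT1, from 0.000246 to 0.188 for RFC4, from 0.0324 to 0.259 for TK1, from 0.00102 to 0.165 for RRM1 and from 0.000534 to 0.151 for DUT. None of the 8 changed direction, but this adds no support. The filters, the fit without the trend, robust estimation and the highest row per symbol leave their log2 effects unchanged. In vector cells the 2 members higher under OTX-015 came to 5 with a pseudocount of 0.1 and to 1 with a pseudocount of 5 or either rescaling, and in wtBRCA1 cells the 2 higher came to 1 and the 10 lower to 6 with a pseudocount of 5, and the 2 higher to 1 after either rescaling.

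Among the 38 members with no other gene above 10 FPKM at their locus, chosen after seeing the data, 2 rose between the lines. In pairs of libraries 0 were higher under OTX-015 in vector cells, and in wtBRCA1 cells 1 was higher and 6 lower. In wtBRCA1 against vector cells under OTX-015 1 was higher, and under DMSO 6. The responses of 3 were higher and of 6 lower in wtBRCA1 cells. These counts come from fewer genes, and the cause of the other changes was not tested.

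No paired analysis was possible because each group has 1 library, so there are no replicates to pair; the fit itself already compares the treatments within each line. Leaving out a library leaves no residual degree of freedom, and the remaining values are those of the pairs given above. The depth is unknown, so no FPKM value has an interval.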
